A study of Mus musculus with 28 samples.

Results

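Before a cell divides it copies its genome with a shared set of proteins and pays for the copy in deoxynucleotides. The RNAs of 45 mouse genes with these tasks were followed in sorted hair follicle stem cells with and without Alkbh5, the demethylase that takes m6A marks off RNA. The genes were chosen by symbol and by known function, with earlier results of these data known, and all 45 were found in each of 3 tables, which list 56691, 47243 and 57010 genes. They make up the MCM helicase, the factors that load and start it, the sliding clamp and its loader, the DNA polymerases and primase, the joining of Okazaki fragments, single-strand binding, fork protection, chromatin behind the fork, and the last steps of nucleotide supply.

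The cKO mice carried a conditional knockout of Alkbh5 and were compared with wild-type (WT) mice, all at postnatal day 69. Stem cells of the bulge and of the hair germ were sorted from skin by flow cytometry, with 2 cKO and 2 WT mice in each of 3 datasets. RNA of bulge cells (200 ng) and of hair germ cells (40 ng) was made into libraries by SHERRY2, in which a transposase cuts RNA/cDNA hybrids. A further hair germ set (40 ng) was made by SMART-seq, which amplifies full-length cDNA. The Cre driver, the deleted exon, the sorting markers and the stage of the hair cycle were not stated in the sources, nor was whether datasets share mice. The 16 m6A libraries of the series were not analysed here.

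Replication runs in a fixed order. In the first gap phase, the origin recognition complex, Cdc6 and Cdt1 load a ring of MCM subunits onto DNA. Geminin is an inhibitor of this loading, which it blocks by binding Cdt1. At the start of S phase, Cdc45 and the GINS complex join the ring and turn it into a moving helicase. Transcription of many of these genes is held down by RB family proteins with E2F factors in resting cells and is high around the start of S phase. Bulge stem cells rest for most of the hair cycle, whereas the hair germ below them is the first to divide when a new hair begins to grow.

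Library depth differed between the datasets. Reads in genes numbered 15272266 and 19806518 in the bulge cKO libraries, against 21187283 and 14676168 in the bulge WT libraries. The hair germ SHERRY2 libraries were far shallower, at 1526070 and 2317407 reads in cKO and 1513001 and 488648 in WT. The hair germ SMART-seq libraries held 13453219 and 9001396 reads in cKO and 14416601 and 11560589 in WT. The targeted gene, Alkbh5, was down to 68 and 50 reads in bulge cKO cells, against 2095 and 1351 reads in WT. In hair germ SHERRY2 it had 27 and 16 reads in cKO and 95 and 30 reads in WT, or 17.7 and 6.90 CPM (counts scaled to a common library total) in cKO against 62.8 and 61.4 CPM in WT. In SMART-seq it had 1141 and 946 reads in the libraries labelled cKO, against 1903 and 1102 reads in WT, or 84.8 and 105 CPM in the libraries labelled cKO against 132 and 95.3 CPM in WT. The SMART-seq groups overlapped, so the genotype labels of that set were not borne out by its Alkbh5 reads. Reads from Xist and from Y-linked genes marked WT mouse 2 as the only male of the bulge set, cKO library 1 as the only male of the hair germ SHERRY2 set, and library 2 of each genotype as male in SMART-seq. The 11 bulge marker genes (Cd34 and Krt15 among them) summed to 7025 and 6739 CPM in bulge cKO cells and 9104 and 9503 CPM in bulge WT cells. They were also high in the hair germ libraries, at 3770 to 6435 CPM in SHERRY2 and 5512 to 10543 CPM in SMART-seq, where the 8 hair germ markers summed to 187 to 716 CPM and 525 to 982 CPM. In the bulge libraries the hair germ markers summed to 593 and 479 CPM in cKO and 632 and 566 CPM in WT. Their range in the bulge thus overlapped that of each hair germ set.

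In bulge stem cells, every one of the 45 genes had a positive fold change in cKO over WT, and 8 of them rose past the test. Those 8 were Clspn, Pole, Rrm2, Tk1, Rrm1, Lig1, Pola1 and Chaf1b, and none was lower. The test was the quasi-likelihood test of edgeR with Benjamini-Hochberg adjustment at 0.05 over 15672 genes, of which 1.44% were called higher and 3.04% in either direction. At an unadjusted p under 0.05 there were 34 of the 45, where 18.9% of all genes lay in either direction. The median log2 fold change of the 45 was 0.88, beside -0.01 over all genes tested. Summed over the 45 genes, RNA stood at 2269 and 3328 CPM in cKO mice, against 1489 and 1230 CPM in WT mice (2799 ± 748 and 1359 ± 183 CPM, mean ± SD, n = 2 each). In bulk RNA of this kind, a larger share of cells in S phase and more RNA per such cell cannot be told apart.

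**Figure D1:**
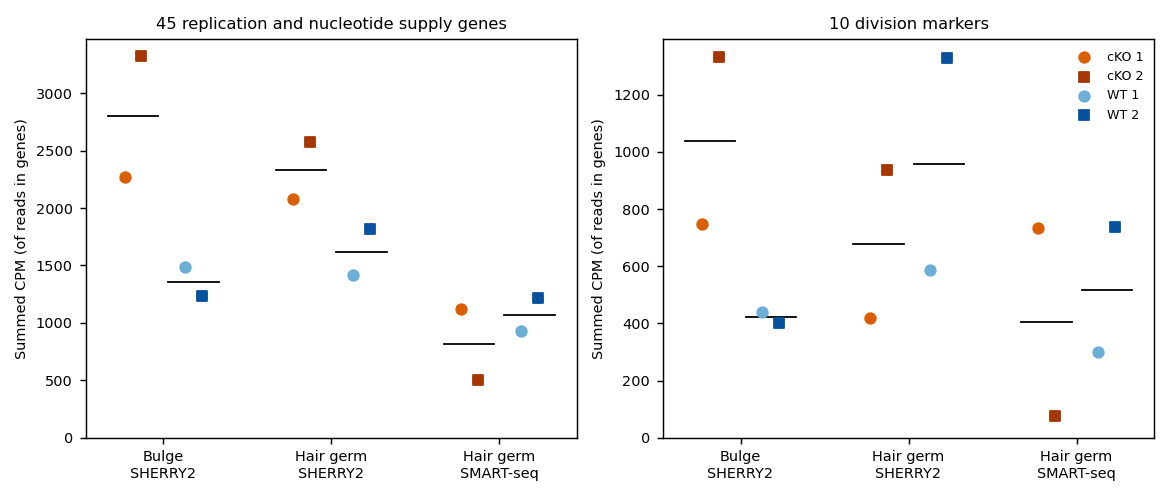
Summed CPM (of all reads in genes) of the 45 replication genes on the left and of 10 division markers on the right, 1 point per library with cKO left of WT in each dataset; bars are means. In the bulge both cKO points, at 2269 and 3328 CPM for the replication genes, lie above both WT points at 1489 and 1230 CPM, whereas the SMART-seq points of both panels are lowest in the library labelled cKO 2.

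The order of the mice was nearly the same from gene to gene. The cKO mouse 2 was highest for all 45 genes, and over all genes tested it exceeded cKO mouse 1 in 50.04%. At the median of the 45 its level was 1.43 times that of cKO mouse 1, with 1 CPM added to each. WT mouse 2, the male, was lowest for 35 genes, WT mouse 1 for 9 and cKO mouse 1 for 1. Both cKO mice lay above both WT mice for 39 genes, where 24.7% of all genes did and 26.2% lay the other way round. The 6 exceptions were Orc6, Cdt1, Gins4, Pcna, Rfc3 and Pold1.

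**Figure D2:**
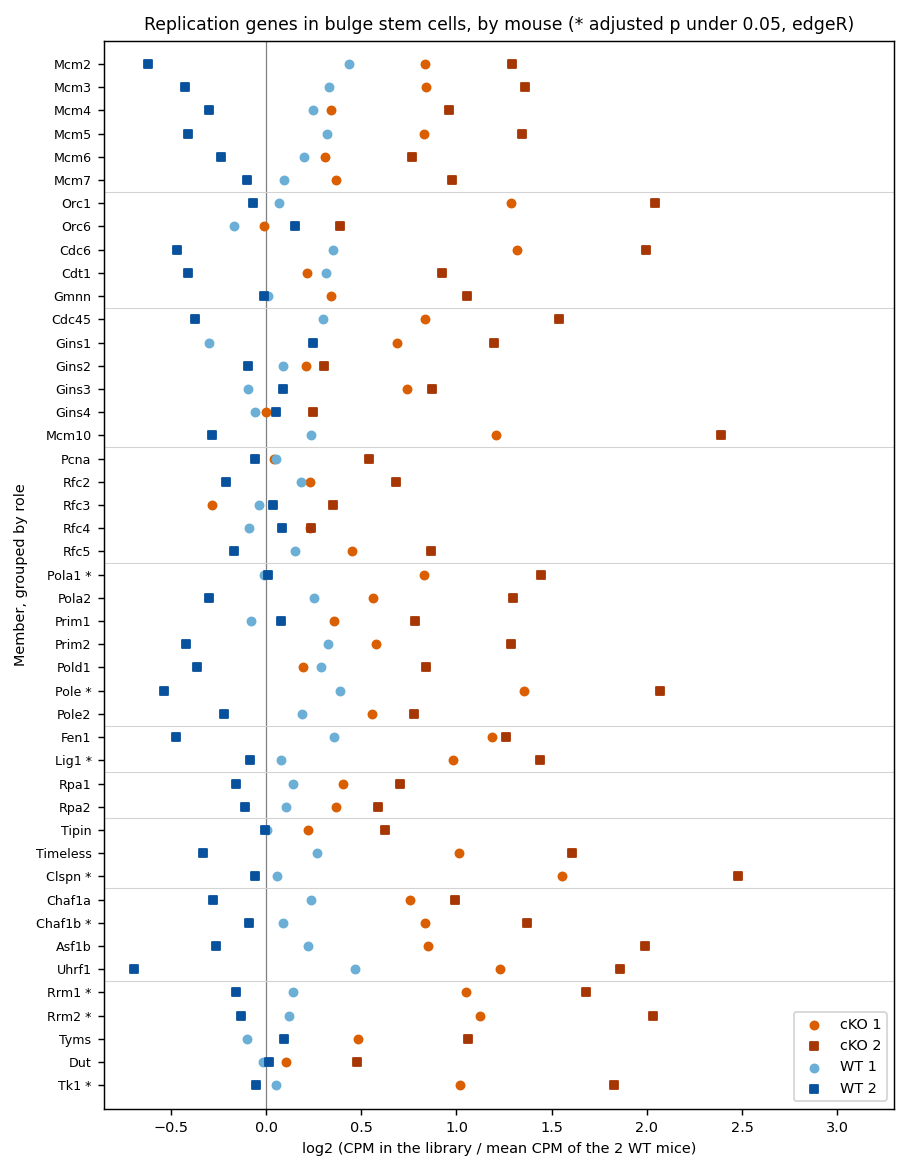
Level of each of the 45 genes in each bulge library, as log2 of its TMM-scaled CPM over the mean of the 2 WT mice, with genes grouped by role and an asterisk on the 8 past an adjusted p of 0.05 in edgeR. The cKO mouse 2 is the rightmost point in all 45 rows, and cKO mouse 1 lies to the right of both WT points in 39.

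Fork protection held the largest change. Clspn encodes claspin, which stands between stalled forks and the checkpoint kinase Chk1. Its level, in CPM scaled by TMM as for all single genes below, was 26.5 and 50.5 in cKO mice, against 9.41 and 8.68 in WT mice. The lower cKO mouse was still well above both WT mice, and the log2 fold change was 2.09 ± 0.31 (SE; adjusted p = 0.0184, edgeR). Timeless and Tipin form the complex that ties claspin to the moving fork. Timeless had 22.4 and 33.7 CPM in cKO mice and 13.3 and 8.82 CPM in WT mice, a log2 fold change of 1.34 ± 0.29 that missed the threshold (adjusted p = 0.0545, edgeR). Tipin, its partner, had a log2 fold change of 0.44.

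Nucleotide supply had the highest median of the 10 roles, at 1.40, with 3 of its 5 genes called. Rrm1 and Rrm2 are the large and small subunits of ribonucleotide reductase, which makes deoxynucleotides from ribonucleotides. Rrm1 had 231 and 357 CPM in cKO mice, against 123 and 100 CPM in WT mice (log2 fold change 1.40 ± 0.23, adjusted p = 0.0254, edgeR). Rrm2 had 52.5 and 98.5 CPM in cKO mice, against 26.1 and 22.0 CPM in WT mice (1.65 ± 0.29, adjusted p = 0.0300). Neither gene's groups overlapped. Per length, in the FPKM of the authors' deposited table, the ratio of Rrm2 to Rrm1 was 0.903 and 1.10 in cKO mice and 0.842 and 0.874 in WT mice. Tk1, the thymidine kinase that recovers thymidine from outside the cell, had 48.4 and 84.8 CPM in cKO mice, against 24.7 and 23.0 CPM in WT mice (1.48 ± 0.26, adjusted p = 0.0310). Tyms, which makes thymidylate within the cell, did not pass, with 35.4 and 52.7 CPM in cKO mice and 23.6 and 27.0 CPM in WT mice (adjusted p = 0.105, edgeR). Dut, which clears dUTP so that uracil stays out of DNA, was among the flattest, at 43.9 and 56.9 CPM in cKO mice and 40.3 and 41.3 CPM in WT mice (log2 fold change 0.31).

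Of the polymerases and primase, 2 of 7 genes were called. Pola1, the catalytic subunit of the polymerase that starts each new strand, had 39.2 and 60.1 CPM in cKO mice, against 21.9 and 22.3 CPM in WT mice (log2 fold change 1.17 ± 0.23, adjusted p = 0.0404, edgeR). Pole, the catalytic subunit of the leading-strand polymerase, had 30.1 and 49.3 CPM in cKO mice, against 15.4 and 8.11 CPM in WT mice (1.75 ± 0.35, adjusted p = 0.0438). Its partner subunit Pole2 had a log2 fold change of 0.67, and the FPKM ratio of Pole to Pole2 was 0.329 and 0.462 in cKO mice, against 0.218 and 0.153 in WT mice. The groups of that ratio did not overlap, and the difference was not tested. For Pola1 to Pola2 the groups overlapped, at 1.40 and 1.29 in cKO mice and 0.970 and 1.45 in WT mice. They also overlapped for the ratios of Cdt1 to Gmnn and Cdc6 to Orc1. Pola2, Prim1 and Prim2, which complete the primase complex, had log2 fold changes between 0.59 and 0.98. Pold1, the catalytic subunit of the lagging-strand polymerase, had 0.55.

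Okazaki fragments are trimmed by Fen1 and sealed by the ligase Lig1. Lig1 had 73.6 and 101 CPM in cKO mice, against 39.4 and 35.2 CPM in WT mice (log2 fold change 1.23 ± 0.19, adjusted p = 0.0223, edgeR). Fen1 had a similar log2 fold change, 1.21 ± 0.41, on 6.75 and 7.09 CPM in cKO mice and 3.78 and 2.13 CPM in WT mice, and did not pass. Its 362 reads over the 4 libraries were the fewest of the 45 genes, and the table places it across Gm10143 and, by 156 bases, the oppositely transcribed Tmem258. The same table gives opposite-strand neighbours with over 100 reads to 9 other members, Lig1, Tk1, Mcm7, Orc6, Cdc45, Gins2, Rfc4, Rfc5 and Chaf1a. The sources used here do not say whether strand entered the counting.

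Behind the fork, CAF-1 (Chaf1a and Chaf1b) and Asf1b place histones on the new DNA, and Uhrf1 brings the maintenance DNA methyltransferase to it. Chaf1b was the only one of the 4 called, with 24.5 and 35.4 CPM in cKO mice, against 14.6 and 12.9 CPM in WT mice (log2 fold change 1.13 ± 0.23, adjusted p = 0.0494, edgeR). Uhrf1 had a larger log2 fold change, 1.57 ± 0.36, on 108 and 168 CPM in cKO mice and 63.8 and 28.6 CPM in WT mice, which were far apart (adjusted p = 0.0664, edgeR). Asf1b had 1.53 and Chaf1a 0.88.

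**Figure D3:**
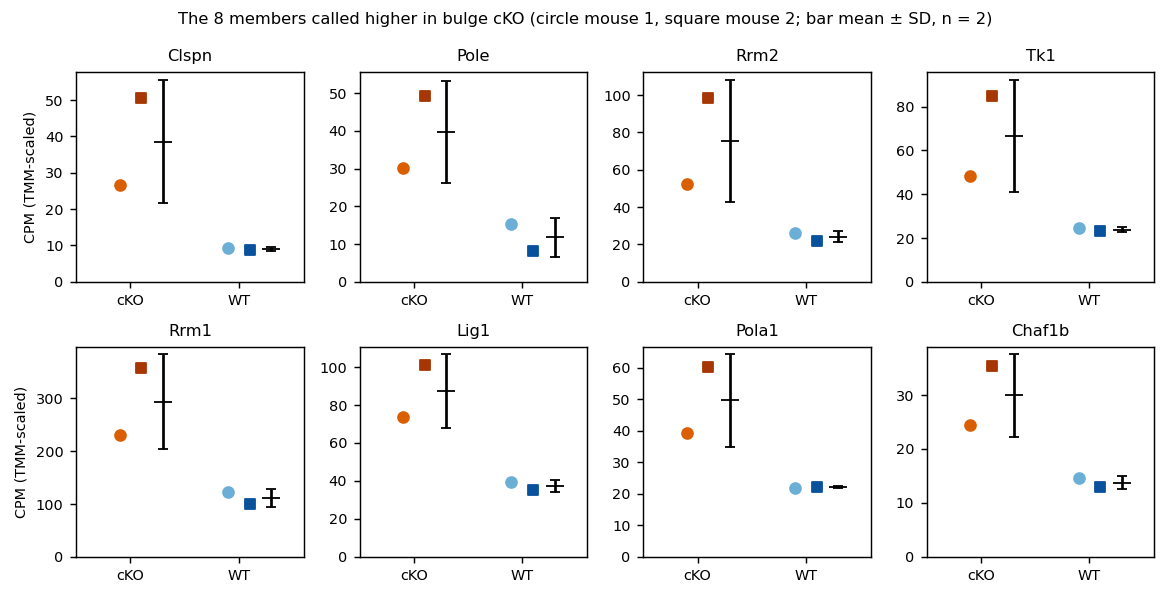
TMM-scaled CPM of the 8 called genes in the 4 bulge mice, cKO left of WT, circles for mouse 1 and squares for mouse 2, with mean ± SD (n = 2) beside each pair. In all 8 panels both cKO points are above both WT points and cKO mouse 2 is the higher, as for Clspn at 26.5 and 50.5 CPM in cKO against 9.41 and 8.68 CPM in WT.

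The helicase subunits were alike, and none was called. All 6 MCM subunits had log2 fold changes between 0.56 (Mcm6) and 1.12 (Mcm3), all 6 had an unadjusted p under 0.05, and in all 6 both cKO mice were above both WT mice. Mcm5 had 94.4 and 135 CPM in cKO mice, against 66.2 and 40.0 CPM in WT mice, the WT mice again being far apart (adjusted p = 0.0729, edgeR). Mcm4 and Mcm7 had smaller log2 fold changes, 0.68 and 0.70. Mcm2 showed the spread of Mcm5, with 80.9 and 111 CPM in cKO mice and 61.2 and 29.4 CPM in WT mice. The subunits did not have equal levels. By FPKM, Mcm6 held the largest share of the 6, at 23.9% and 22.6% in cKO mice and 26.8% and 28.7% in WT mice, and Mcm2 the smallest, at 8.84% and 8.39% in cKO mice and 8.12% and 5.67% in WT mice.

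Among the loading factors the spread was wide. Orc1, the largest subunit of the origin recognition complex, had 6.19 and 10.5 CPM in cKO mice, against 2.66 and 2.42 CPM in WT mice, and a log2 fold change of 1.71 ± 0.40 (adjusted p = 0.0681, edgeR). Cdc6 had 10.1 and 16.1 CPM in cKO mice, against 5.16 and 2.92 CPM in WT mice (1.69 ± 0.39, adjusted p = 0.0666, edgeR). Both are low genes whose groups were well apart. By contrast Orc6 had 0.21, Cdt1 0.61 and Gmnn, which encodes geminin, 0.74, and the groups overlapped for Orc6 and Cdt1. Mcm10, which helps to start the helicase, had the second largest value of the 45, with 9.41 and 21.3 CPM in cKO mice and 4.80 and 3.34 CPM in WT mice (1.91 ± 0.43, adjusted p = 0.0626, edgeR). Cdc45 had 1.23, and the 4 GINS subunits ranged over 0.13 (Gins4), 0.26 (Gins2), 0.81 (Gins3) and 0.97 (Gins1) although they act as 1 complex.

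The clamp and clamp loader stood at the other end, with a median of 0.31 and no call among 5 genes. Pcna, the sliding clamp that holds polymerases on DNA, was the most abundant of the 45 by FPKM in all 4 libraries, although reads of its pseudogenes may be counted either way. It had 144 and 205 CPM in cKO mice and 146 and 135 CPM in WT mice, so that cKO mouse 1 lay between the WT mice (log2 fold change 0.31 ± 0.19, adjusted p = 0.438, edgeR). Of the clamp loader, Rfc3 had the smallest value of all, 0.07, with 22.4 and 34.7 CPM in cKO mice and 26.5 and 28.0 CPM in WT mice. Rfc4 had 0.24, Rfc2 0.48 and Rfc5 0.67. The single-strand binding genes Rpa1 and Rpa2 had 0.56 and 0.48, without overlap of the groups. Across the 45 genes, log2 fold change and mean WT FPKM had a Spearman rho of -0.60. It is given as a description, since the points share their libraries and WT values enter both axes.

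The 8 calls depended on the libraries. Without WT mouse 2, the male, edgeR called none of the 45 and 0.422% of all genes higher. The median log2 fold change was then 0.72. Among the 8 it was 2.03 for Clspn, 1.17 for Pola1 and 1.42 for Tk1, beside 2.09, 1.17 and 1.48 in the main fit. Pole moved further, from 1.75 to 1.36. That fit also leaves only 1 WT mouse. For the 8 calls, sex, the single library and the loss of a replicate cannot be told apart. Without WT mouse 1, 4 of the 8 were kept (Pole, Lig1, Clspn and Rrm1) and 4 others were called, where 1.29% of all genes were called higher. Without cKO mouse 2, 12 were called, where 2.07% of all genes were, Chaf1b was not, and the median was 0.56, with Gins4, Orc6 and Rfc3 below 0. Without cKO mouse 1, 33 were called with a median of 1.09, where 4.69% of all genes were. DESeq2 called 21 (2.11% of 26954 genes higher), scaling by library totals alone 22 (3.76%), and edgeR without the filter on low counts 27 (2.7%), in each case with all 8 among them. The median was 0.89 without the filter beside 0.88 with it, so the added calls of that fit came with a changed model of the spread. With the replicate number as a block 6 were called, where 1.31% of all genes were called higher. Scaling by library totals moved the median of all genes to 0.16, and the 45 stood 0.89 above it, as they stood 0.89 above the median with TMM.

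A feature that the genes might share was looked for in their promoters. RefSeq promoters of GRCm38.p6, from 250 bases before to 50 after the start, were given for 36 of the 45 (the first listed start was used for 4 with several). An E2F word (TTTCCCGC, TTTCGCGC, TTTGCCGC or TTTGGCGC, on either strand) lay in 13 of the 36, or 36.1%, against 2.32% of 27025 promoters of the same length. CCAAT, the word bound by the factor NF-Y, lay in 22 of the 36, or 61.1%, against 37.9% of all. The cell cycle homology region (TTTGAA or TTCGAA), typical of genes of mitosis, lay in 7, or 19.4%, the same share as the 19.4% of all promoters. No word of 1 motif lies inside a word of another. Every E2F word holds CG, and the promoters compared were not matched for base content. The 13 with an E2F word were Cdc6, Cdt1, Clspn, Gins3, Mcm3, Mcm5, Mcm6, Mcm7, Orc1, Pola1, Pold1, Pole2 and Rfc3. The median bulge log2 fold change was 0.81 in the genes with the word and 1.08 in the 23 without it. To show both kinds, 4 promoters are given: of the called genes, Clspn and Pola1 hold an E2F word and Rrm2, the largest of the called genes with a promoter but without the word, holds none, while Rfc3, the flattest of the 45, holds 2. Capitals mark E2F and CCAAT matches, and each is written 5′ to 3′ on the strand of its gene.
Clspn (chr4:126556730-126557029, plus strand): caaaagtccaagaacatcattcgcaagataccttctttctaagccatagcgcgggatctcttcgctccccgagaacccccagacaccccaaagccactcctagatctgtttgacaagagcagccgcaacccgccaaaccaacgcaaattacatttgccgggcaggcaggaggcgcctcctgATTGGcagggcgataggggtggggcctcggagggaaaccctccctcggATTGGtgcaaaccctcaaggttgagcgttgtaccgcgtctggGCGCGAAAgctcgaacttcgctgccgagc
Pola1 (chrX:93632106-93632405, minus strand): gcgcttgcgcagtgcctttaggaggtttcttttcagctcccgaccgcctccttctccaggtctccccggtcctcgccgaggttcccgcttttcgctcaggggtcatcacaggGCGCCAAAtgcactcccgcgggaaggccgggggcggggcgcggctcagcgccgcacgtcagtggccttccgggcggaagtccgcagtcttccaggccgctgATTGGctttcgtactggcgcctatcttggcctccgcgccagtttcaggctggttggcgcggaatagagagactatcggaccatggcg
Rrm2 (chr12:24708004-24708303, plus strand): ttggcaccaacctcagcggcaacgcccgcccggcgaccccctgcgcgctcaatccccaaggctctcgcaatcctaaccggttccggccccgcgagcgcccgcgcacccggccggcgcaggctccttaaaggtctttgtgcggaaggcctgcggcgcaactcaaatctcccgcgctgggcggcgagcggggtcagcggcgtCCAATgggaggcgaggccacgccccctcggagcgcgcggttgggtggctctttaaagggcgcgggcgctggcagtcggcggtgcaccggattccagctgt
Rfc3 (chr5:151651159-151651458, minus strand): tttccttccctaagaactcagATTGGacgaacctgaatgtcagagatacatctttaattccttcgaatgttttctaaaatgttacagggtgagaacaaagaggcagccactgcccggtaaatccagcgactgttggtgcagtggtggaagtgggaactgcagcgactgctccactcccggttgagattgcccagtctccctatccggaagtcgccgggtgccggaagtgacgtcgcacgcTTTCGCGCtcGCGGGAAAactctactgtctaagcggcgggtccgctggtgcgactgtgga

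Other genes of the pathway were read from lists that did not enter the 45, also chosen with earlier results of these data known. Of all 15672 genes tested in the bulge, 1.44% were called higher. Of 40 further fork and origin genes, 5 rose in bulge cKO cells (Dna2, Wdhd1, Tonsl, Pclaf and Topbp1), none fell, and the median log2 fold change was 0.43. Wdhd1, which couples the helicase to the primase complex, had 35.4 and 55.3 CPM in cKO mice, against 14.7 and 11.5 CPM in WT mice (1.79 ± 0.26, adjusted p = 0.0161, edgeR). Pclaf, a binding partner of Pcna, had 55.6 and 83.5 CPM in cKO mice, against 25.5 and 23.4 CPM in WT mice (1.51 ± 0.22, adjusted p = 0.0167). Of 34 further genes of nucleotide supply, most of which act upstream of the deoxynucleotide steps, only Cad (1.12) and Prps2 (0.78) rose, and the median was 0.15. Of the regulators, all 18 E2F and RB family genes, cyclins and kinases were positive with a median of 0.65, and Ccne1 and E2f2 rose. Ccne1, cyclin E1, which drives entry into S phase, had 10.5 and 15.3 CPM in cKO mice, against 4.04 and 2.77 CPM in WT mice (1.91 ± 0.35, adjusted p = 0.0351, edgeR). E2f1 had 0.88 ± 0.33 and did not pass.

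Markers of the later cycle and genes that brake it were read in the same libraries. Of 10 division markers, all were positive with a median of 1.09, and Mki67 and Top2a rose. Mki67 had 235 and 405 CPM in cKO mice, against 145 and 114 CPM in WT mice (1.30 ± 0.26, adjusted p = 0.0465, edgeR). Of 10 arrest genes, 9 were tested, of which 6 were positive and 3 negative, with a median of 0.77 and a lowest value of -1.21. The 5 that rose (Ccng1, Cdkn1a, Mdm2, Sesn2 and Zmat3) are all known targets of p53 in mouse or human cells. The list was chosen with earlier results of these data known, so this is no test of p53 activity. Its other members (Cdkn1b, Cdkn1c, Cdkn2a, Cdkn2b and Trp53) were not called. Cdkn1a, the inhibitor p21 of cyclin-dependent kinases, had 493 and 533 CPM in cKO mice, against 272 and 223 CPM in WT mice (1.05 ± 0.17, adjusted p = 0.0249, edgeR).

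The sorted bulge cells also differed in the RNA of other cell types. The 9 immune markers summed to 93.7 and 53.2 CPM in cKO mice, against 245 and 198 CPM in WT mice. All 8 that were tested were negative, and Cd74, H2-Aa and H2-Ab1 fell. The 5 T cell markers summed to 5.63 and 2.68 CPM in cKO mice and 18.1 and 16.5 CPM in WT mice. Of these, the 4 tested were all negative, and Cd3g fell. Lyz2, Cd3d and Trac were under 1 CPM in every library. Basal keratinocyte markers were at 29493 and 33652 CPM in cKO mice and 32748 and 29348.5 CPM in WT mice, and fibroblast markers at 24.6 and 11.4 CPM in cKO mice and 17.7 and 9.40 CPM in WT mice. The part of these differences in the replication genes was not tested.

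In hair germ cells by SHERRY2, no replication gene passed the test, although the 44 that could be tested were all positive. The test was limma on log2(normalized count + 1), a scale that understates changes of low genes. It called 0.0077% of 38953 genes. At an unadjusted p under 0.05 there were 9 of the 44, where 4.62% of all genes lay. The median log2 fold change was 0.96, beside 0.06 over all genes. Fen1 was not tested, with 1 and 1 reads in cKO and 1 and 0 in WT.

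The MCM subunits had log2 fold changes between 1.07 and 2.01, and in all 6 both cKO libraries were above both WT libraries. Mcm2 had 142 and 237 normalized counts in cKO libraries, against 82.2 and 52.2 in WT libraries (log2 fold change 1.47 ± 0.77, adjusted p = 0.970, limma). Mcm5 had 122 and 256 in cKO and 101 and 64.8 in WT (1.12 ± 0.79). In both genes cKO library 2 was the highest. Named after its value was seen, Tipin had the largest log2 fold change of the set, 2.45 ± 0.58, on 32.3 and 59.6 normalized counts in cKO and 10.8 and 4.74 in WT (adjusted p = 0.225, limma). Its WT values came from 11 and 3 reads. In the bulge the same gene had only 0.44. Clspn, the largest in the bulge, had 31.5 and 53.9 normalized counts in hair germ cKO libraries and 42.1 and 30.0 in WT libraries, with overlapping groups and a log2 fold change of 0.21.

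The loading factors split, with log2 fold changes of 1.46 for Cdt1 and 0.11 for Cdc6. The named genes of nucleotide supply had 0.85 for Rrm1, 0.48 for Tyms and 0.39 for Rrm2. Among fork and chromatin genes, Rpa2 had 1.27, Uhrf1 1.13, Pcna 1.04, Chaf1b 0.77, Cdc45 0.27 and Pola1 0.27. None of these passed in limma. Both cKO libraries were above both WT libraries for 22 of the 45 genes, where 16.4% of all genes were. cKO library 2 was highest for 43 and WT library 2, the shallowest of the 12, lowest for 37. Left out in turn, cKO library 2 took the median to 0.32 with 33 of 44 positive, WT library 2 took it to 0.68 with 41 positive, and cKO library 1 took it to 1.49 with 44 positive. The scaling mattered as well. Whole reads recovered from the normalized counts and tested with edgeR gave 37 of 44 positive with a median of 0.71 and no call, while 0.377% of 16707 genes were called, and DESeq2 on the same reads called none of the 45. Scaled by library totals alone, an alternative chosen after seeing the data, 33 of 44 were positive with a median of 0.54, beside -0.21 over all genes. Summed on the CPM scale, the 45 genes stood at 2082 and 2576 CPM in cKO and 1420 and 1819 CPM in WT, so that on this scale WT library 2 was above WT library 1. The authors' deposited table gives 45 of 45 genes a positive log2 fold change with a median of 0.99, and 4 with a p under 0.05, the lowest adjusted p being 0.9997.

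The division markers did not share this direction. Their median was -0.01, with 5 of 10 positive, and they summed to 419 and 936 CPM in cKO and 586 and 1328 CPM in WT. Mki67 had 180 and 652 normalized counts in cKO and 362 and 419 in WT. The further genes of nucleotide supply, by contrast, had 33 of 34 positive with a median of 0.99, and the further fork and origin genes 37 of 39 with 0.52. No gene of these lists was called.

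These libraries also carried reads where follicle cells should have few. Over 308 olfactory and vomeronasal receptor genes with a length in the bulge table, hair germ SHERRY2 had 2.01 and 1.35 reads per kb in cKO and 1.34 and 1.06 in WT. At that rate the 45 genes would collect 13.1% and 4.65% of their reads in cKO and 12.9% and 24.6% in WT. The corresponding share was at most 0.0352% in the bulge, from 1472 such genes, and 0.0885% in SMART-seq, from 357. The median gene of the 45 stood 6.80 and 24.3 times above the receptor rate in cKO libraries and 7.66 and 3.92 times above it in WT libraries, so WT library 2 was closest to it. In WT library 2 Tipin, on 3 reads, was at 1.52 times the receptor rate. Markers of other cells also varied here. Suprabasal keratinocyte markers summed to 2199.8 and 3275 CPM in cKO and 11040.3 and 2051 CPM in WT, and immune markers to 472 and 227 CPM in cKO and 346 and 688 CPM in WT. The part of the receptor background and of these markers in the fold changes was not tested.

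**Figure D4:**
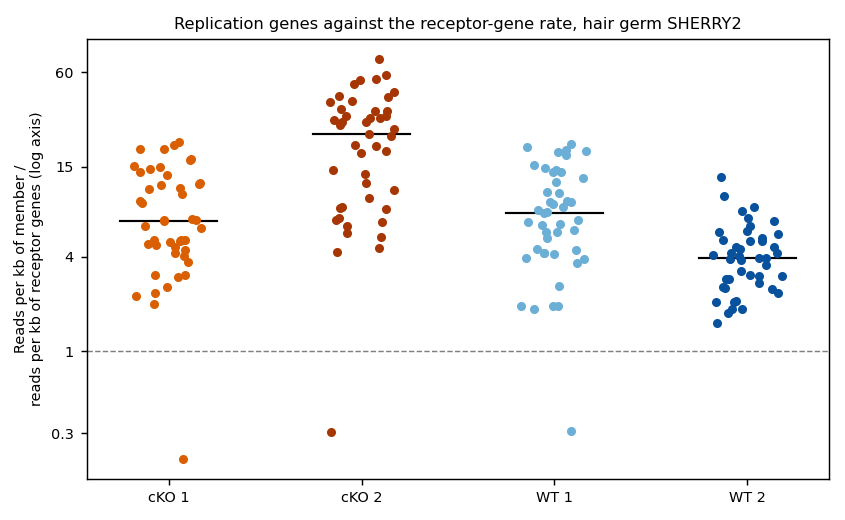
Reads per kb of each replication gene over the reads per kb of 308 receptor genes in the same hair germ SHERRY2 library (log axis), with cKO libraries left of WT libraries, a bar at the median and a dashed line at the receptor rate. The medians are 6.80 and 24.3 in cKO and 7.66 and 3.92 in WT, and Fen1 is the 1 gene under the line (at 0 in WT 2 and not drawn there).

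By SMART-seq, most of the same genes had negative values in the libraries labelled cKO, and none was called. Of 45 genes, 40 were negative with a median log2 fold change of -0.44, beside -0.02 over all genes. The share of all 17547 genes called by edgeR was 0.0%. None of the 45 had an unadjusted p under 0.05, where 1.02% of all genes did. DESeq2 called none either, and edgeR without the filter called 30 of 29110 genes, none of them a replication gene. In that fit 722 of the 29110 had an unadjusted p under 0.05, and so did 7 of the 45. Summed, the genes stood at 1124 and 503 CPM in the libraries labelled cKO, against 927 and 1214 CPM in WT.

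The direction rested on 1 library. The library labelled cKO 2 was lowest for 41 of the 45 genes. Without it the median was -0.0041 with 21 of 45 positive, without the library labelled cKO 1 it was -1.26, and without WT library 2 it was -0.20 with 13 positive. Both libraries labelled cKO were below both WT libraries for 7 genes, where 12.5% of all genes were, and above them for 1 (Rpa2), where 11.8% were. Cdc6 had the most negative value, with 5.27 and 2.24 CPM in the libraries labelled cKO and 6.01 and 9.49 CPM in WT (-1.03 ± 0.56, adjusted p = 1.00, edgeR). Uhrf1 had 66.3 and 10.1 CPM in the libraries labelled cKO and 36.4 and 86.3 CPM in WT, and Clspn 19.6 and 3.58 CPM in the libraries labelled cKO and 8.88 and 18.1 CPM in WT. For both, the range within a genotype covered the difference between genotypes. Rpa2, with 16.3 and 13.0 CPM in the libraries labelled cKO and 13.0 and 11.5 CPM in WT, had 0.26.

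The other named genes ranged from -0.88 (Cdt1) to 0.42 (Fen1, on 0.878 and 1.45 CPM in the libraries labelled cKO and 0.787 and 0.940 CPM in WT). Between them lay Cdc45 at -0.63, Rrm1 at -0.58, Mcm2 at -0.58, Mcm5 at -0.56, Tyms at -0.47, Pcna at -0.41, Rrm2 at -0.40, Pola1 at -0.25 and Chaf1b at -0.14. The division markers were likewise lowest in the library labelled cKO 2, at 735 and 75.3 CPM in the libraries labelled cKO and 300 and 736 CPM in WT. Mki67 had 417 and 43.3 CPM in the libraries labelled cKO and 178 and 436 CPM in WT. The library labelled cKO 2 also held more bulge marker RNA, 10543 CPM beside 5512 CPM in the library labelled cKO 1 and 8149 and 5785 CPM in WT, and more immune marker RNA, 130 CPM beside 41.0 CPM and, in WT, 40.2 and 24.6 CPM. The part of these differences in the replication genes was not tested.

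**Figure D5:**
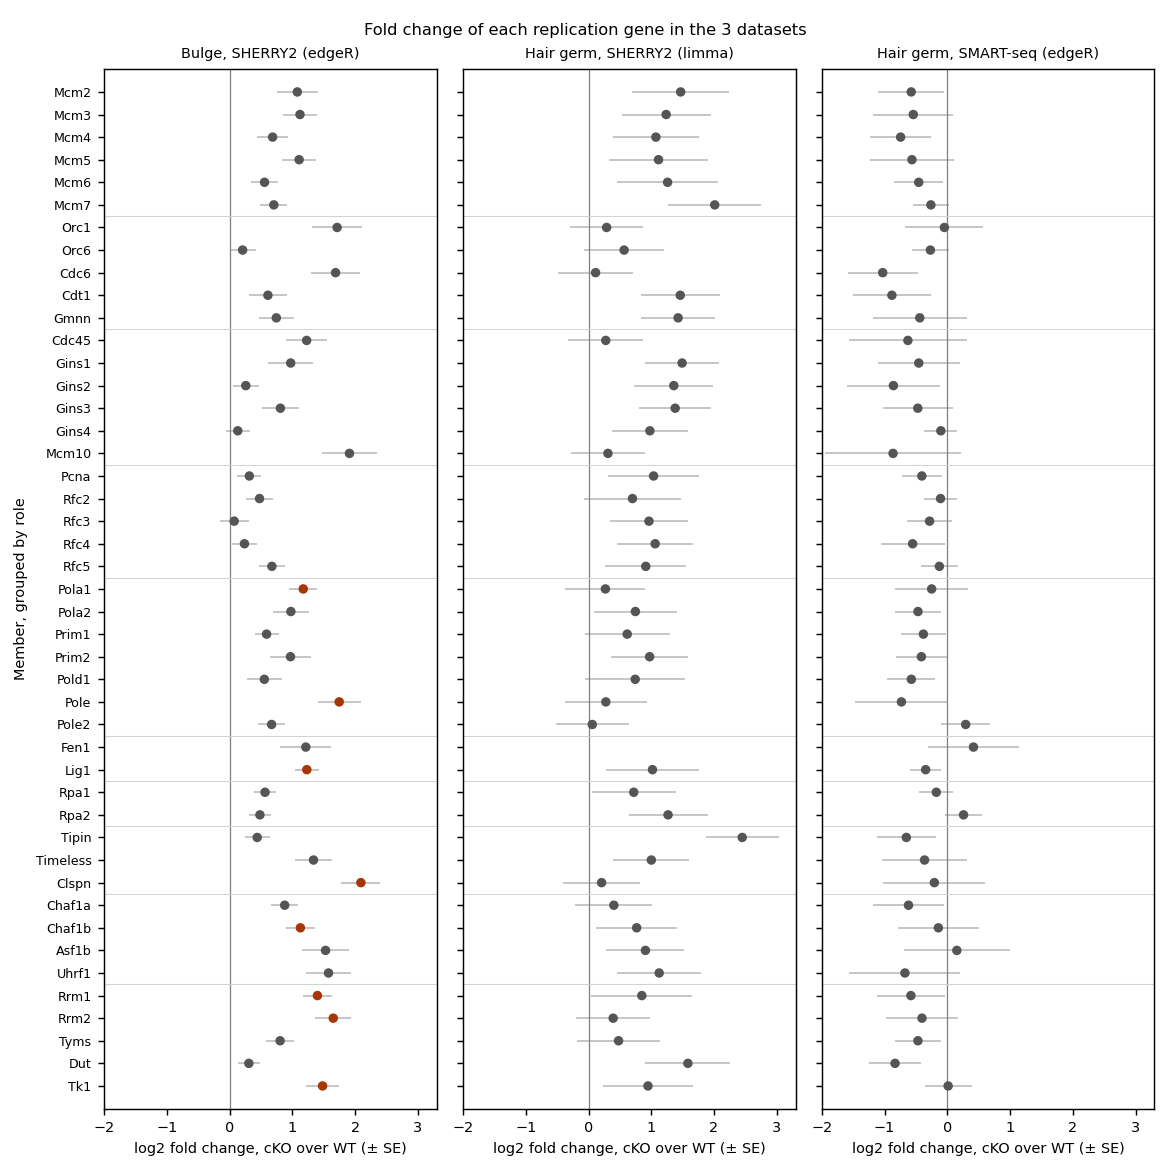
Log2 fold change of cKO over WT with its SE for each of the 45 genes, grouped by role, in the bulge, in hair germ SHERRY2 (Fen1 not tested) and in hair germ SMART-seq, with the 8 called genes in colour. Values are all positive in the first 2 panels, with medians of 0.88 and 0.96, and 40 of 45 are negative in the third, with a median of -0.44.

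Whether the genotype effect differed between the bulge and hair germ SMART-seq was tested in a joint edgeR fit with an interaction term. The datasets differ in cell type and method at once, which cannot be told apart. The cKO mice were not the same pair, since both of the bulge set were female and 1 of SMART-seq was male, and the SMART-seq labels were not borne out by Alkbh5. The difference, bulge minus hair germ, was positive for all 45 genes with a median of 1.38, beside 0.03 over all genes, and none passed, while 0.0413% of 19371 genes did. At an unadjusted p under 0.05 there were 14 of the 45, where 6.66% of all genes lay. The median difference was 0.99 without bulge cKO mouse 2 and 2.00 without the SMART-seq library labelled cKO 1. It was 0.88 without the SMART-seq library labelled cKO 2. Lig1 had the lowest adjusted p of the 45, 0.451, with a difference of 1.58 ± 0.34, and Cdc6 followed with 2.73 ± 0.76 (adjusted p = 0.604, edgeR). All 5 genes of nucleotide supply were among the 14, at 1.14 (Dut) to 2.06 (Rrm2). Without the filter on low counts the same fit called 16 of the 45 higher and 0.798% of all genes higher. Its median difference was also 1.38, so these calls came with a changed model of the spread and not with larger differences. With the recovered reads of hair germ SHERRY2 in place of SMART-seq, none was called, 29 of 45 were positive, and the median was 0.30, beside 0.20 over all genes.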

How the data were processed

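Per the labels, 12 RNA-seq libraries were made from sorted cells of 2 cKO and 2 WT mice in each of 3 datasets. In the bulge table the authors deposited for each gene its read count and its FPKM, which follows from count, exonic length and library total within 0.495% (checked where reads reach 100 and FPKM reaches 1). In the hair germ SHERRY2 table the authors deposited, per the file headers, a normalized signal per library with a log2 fold change, a Wald score and p-values, laid out as a DESeq2 result. In the SMART-seq table they deposited a read count per gene. The submitters' processing notes name STAR, featureCounts and DESeq2 among the tools, with HISAT2 and Subread also named for SMART-seq. The notes name GRCm38, mm10 and, for SMART-seq, GRCm39. The bulge table names no build, so its positions are not printed.

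Counts were tested with edgeR 4.0.16 in R 4.3.3 (quasi-likelihood, TMM, filterByExpr), cKO against WT with no other term, two-sided. Counts had been foreseen for hair germ SHERRY2, and since its values are normalized, limma 3.58.1 with a trend was used on log2(normalized count + 1), leaving out genes whose mean was under 1. Whole reads were recovered for 100% of its values within 0.01 reads (size factors 0.632 to 1.36) and tested with edgeR. DESeq2 1.42.0 was an alternative. The SE of an edgeR value is its size over the square root of its F. The edgeR and limma fits within each dataset were tested on simulated data. The joint fit was tested on data simulated from bulge counts alone, and DESeq2 was not tested in this way. Columns of the hair germ SHERRY2 table show the genotype and a number, and were assigned by name.

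Every member is named for the bulge, and for the hair germ those past 0.05 and a fixed 15 (Tipin was added after its value was seen), besides pathway genes past 0.05 and a few regulators. The members and lists were chosen with earlier results of these data known. Mice are the replicates, and with 2 per group an exact permutation test of 1 value cannot go below 0.333 (two-sided). Replicate numbers of the labels were not taken to pair the libraries.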

Additional observations from a re-analysis of the deposited data

Results flagged for a closer look

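The genotype effect on Alkbh5 itself differed between the bulge and hair germ SMART-seq in the joint edgeR fit, by -4.67 on the log2 scale (bulge minus hair germ, adjusted p = 0.0335). Alkbh5 fell in bulge cKO cells, at 4.21 and 2.38 TMM-scaled CPM against 107 and 96.1 CPM in WT, while the libraries labelled cKO of the SMART-seq set overlapped with WT. The same fit gave Zmat3, a p53 target, a difference of 2.0 (adjusted p = 0.0419). In the bulge Zmat3 had 162 and 150 CPM in cKO mice, against 41.8 and 37.6 CPM in WT mice. With the replicate number as a block neither difference passed (adjusted p = 0.0732 for Alkbh5 and 0.121 for Zmat3, edgeR). Leaving out libraries in turn gave adjusted p-values of 0.00772 to 0.182 for Alkbh5 and 0.0376 to 0.408 for Zmat3.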

How the results depend on the processing

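In the bulge, the number of replication genes called was 8, 21 with DESeq2, 22 with library totals only and 27 with no filter. The median log2 fold change of all 45 was 0.88, 0.89 with no filter, and 0.56 to 1.09 when libraries were left out in turn. With the replicate number as a block, 6 were called in the bulge (Pole and Chaf1b were not, and 1.31% of all genes were called higher), 0 in each hair germ set and 0 in the interaction, which changed no other call of a replication gene; the labels give no shared litter, batch or day to a number, although same-numbered SMART-seq libraries were of the same sex (correlation of same-number deviations 0.0076 in the bulge, 0.229 in SMART-seq and -0.462 in hair germ SHERRY2). Crossing the pairs in hair germ SHERRY2, chosen after seeing the data, called 4 replication genes, where 1.05% of all genes were called higher. Left out in turn, libraries moved the SMART-seq median over -1.26 to -0.0041 and the hair germ SHERRY2 median over 0.32 to 1.49. The interaction called 16 with no filter, at the same median difference of 1.38. In hair germ SHERRY2, edgeR on recovered reads turned Cdc6 to -0.16, Clspn to -0.061 and Rrm2 to -0.064, and with library totals only it gave Cdc6 -0.40, Cdc45 -0.28, Pola1 -0.22, Clspn -0.28, Rrm2 -0.12 and Tyms -0.0096. Among the genes followed singly, leaving out libraries turned the sign of Gins4 (-0.0096 to 0.28), Orc6 (-0.020 to 0.42) and Rfc3 (-0.29 to 0.38) in the bulge. It did so for Cdc45 (-0.13 to 0.68), Cdc6 (-0.18 to 0.41), Clspn (-0.17 to 0.59), Pola1 (-0.12 to 0.66) and Rrm2 (-0.40 to 1.18) in hair germ SHERRY2, where 33 to 44 of all 44 tested were positive. In SMART-seq it did so for Alkbh5 (-0.52 to 0.0032), Cdc45 (-2.88 to 0.19), Chaf1b (-1.26 to 0.47), Clspn (-1.89 to 0.54), Mcm5 (-1.91 to 0.11), Pola1 (-1.42 to 0.38), Rrm1 (-1.66 to 0.026), Rrm2 (-1.46 to 0.20) and Uhrf1 (-2.59 to 0.11), with 3 to 21 of all 45 positive. The cause was not tested. Hair germ SHERRY2 was the shallowest set, with 488648 reads in its shallowest library, and the part of depth in its results was not tested.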
